A study of Mus musculus with 6 samples.

Results

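The genes described here are the TAM receptors *Axl*, *Mertk* and *Tyro3*, their ligands *Gas6* and *Pros1*, and 4 further genes whose products bind dying cells or the phosphatidylserine on them, *Mfge8*, *Megf10*, *Timd4* and *Stab2*. They were chosen by symbol, and all 9 were matched among the 54752 genes counted. RNA-seq was performed on the whole right hippocampus of 6 male C57BL/6 mice (genotype WT, aged 14 weeks). The paper names the strain C57BL/6 J. Of these mice, 3 were operated for bilateral carotid artery stenosis (BCAS) and 3 were given a sham operation. BCAS mice carried a microcoil on each common carotid artery, with the narrower coil on the right, whereas sham mice went through the same surgery without coils, and tissue was taken 3 weeks later. Each mouse gave 1 library, and mice are named by the replicate numbers of the labels. The libraries are bulk tissue from a model with neuronal loss in this region, so a change in the number of cells of a type and a change in RNA per cell cannot be told apart.

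Cells that die by apoptosis move phosphatidylserine to the outer face of their membrane, and phagocytes recognize it directly or through bridging proteins, a clearance called efferocytosis. *Gas6* and *Pros1* encode such bridges: a domain modified with the help of vitamin K binds the lipid, and the other end activates a TAM receptor kinase. GAS6 can activate each TAM receptor, whereas protein S, the product of *Pros1* and also an anticoagulant, acts on TYRO3 and MERTK. In the brain, MERTK and AXL are found on microglia and astrocytes, and TYRO3 mainly on neurons. TAM signalling also dampens innate immune responses, partly through the interferon receptor and SOCS proteins.

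Library totals ran from 29652456 to 35607098 counts. Levels are given as CPM, counts scaled to library size with edgeR's TMM factors. Counts of 3 or fewer were treated as the detection limit, which corresponded to 0.0874 to 0.0994 CPM and covers counting error only. The hippocampal field markers Prox1 and C1ql2 of the dentate gyrus were at means of 96.9 and 95.3 CPM in sham mice, and Neurod6 of pyramidal neurons at 249.7 CPM. Of 8 such field markers, 4 were lower in BCAS mice by the adjusted *P* value, beside 13.2% of all tested genes. Of these markers, 3 were down-regulated DEGs (defined below), beside 0.999% of all tested genes. They were Neurod6, at 84.9 CPM (log2 fold change -1.56), Fibcd1 (-1.91) and Spink8 (-2.15). Choroid plexus, a neighbouring tissue, differed widely among libraries of the same group: the summed level of its 6 markers was 991, 4089 and 71.1 CPM in sham mice 1 to 3, and 5938, 40.9 and 3225 CPM in BCAS mice 1 to 3.

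Of the 9 genes, 3 were up-regulated differentially expressed genes (DEGs) in BCAS mice, namely *Axl*, *Mertk* and *Pros1*. DEGs needed an adjusted *P* value under 0.05 in edgeR's quasi-likelihood test over all 18617 genes that passed the filter on low counts, and an absolute log2 fold change above 1. Among all tested genes, 8.47% were up-regulated DEGs. *Gas6* and *Megf10* also rose by the adjusted *P* value but stayed below the fold change threshold, which brings the genes higher in BCAS mice to 5 of 8 tested, against 18.0% of all tested genes. *Tyro3*, *Mfge8* and *Stab2* did not pass, and *Timd4* was too low to test. No member was a down-regulated DEG with edgeR, DESeq2 or limma-voom, and with edgeR 0.999% of all tested genes were. At an unadjusted *P* under 0.05, 0 of the 8 were lower, beside 19.4% of all tested genes. In each of the 5 genes that rose, every BCAS mouse lay above every sham mouse, as did 25.3% of all tested genes. The median log2 fold change of the 8 genes was 0.65, beside 0.018 over all tested genes.

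**Figure D1:**
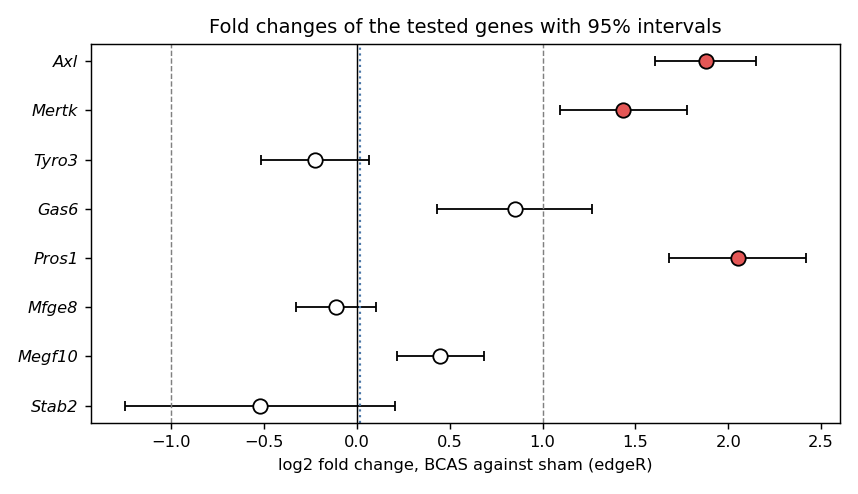
Log2 fold change of the 8 tested genes, BCAS against sham (x axis), with 95% intervals from edgeR. Red points are DEGs, dashed lines mark a log2 fold change of -1 and 1, and the dotted line the median of all tested genes; the intervals of Axl, Mertk and Pros1 lie wholly above 1 and those of Tyro3, Mfge8 and Stab2 include 0.

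To show the start regions behind these receptor and ligand genes, the 250 bases before the RefSeq start (build GRCm38.p6, which shares its coordinates with mm10) are given for the 3 DEGs and for *Gas6*, the other TAM ligand. They are read 5′ to 3′ on the strand of the gene, and capitals mark matches to the motifs searched.
Axl, chr7:25788734-25788983, minus strand: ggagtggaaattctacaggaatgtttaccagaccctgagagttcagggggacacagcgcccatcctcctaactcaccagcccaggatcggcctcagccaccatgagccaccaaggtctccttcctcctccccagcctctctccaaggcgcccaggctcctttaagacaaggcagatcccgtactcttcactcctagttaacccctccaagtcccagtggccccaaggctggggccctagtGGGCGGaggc
Mertk, chr2:128698665-128698914, plus strand: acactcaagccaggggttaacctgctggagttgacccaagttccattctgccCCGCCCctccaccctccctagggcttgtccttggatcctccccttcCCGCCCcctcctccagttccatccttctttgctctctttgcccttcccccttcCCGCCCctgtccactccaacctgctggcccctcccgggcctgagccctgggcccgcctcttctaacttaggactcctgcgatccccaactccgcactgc
Pros1, chr16:62854057-62854306, plus strand: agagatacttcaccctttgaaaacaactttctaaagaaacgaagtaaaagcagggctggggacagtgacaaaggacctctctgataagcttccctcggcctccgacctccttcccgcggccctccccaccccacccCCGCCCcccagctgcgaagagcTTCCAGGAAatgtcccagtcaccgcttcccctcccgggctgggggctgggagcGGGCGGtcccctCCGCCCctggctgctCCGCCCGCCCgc
Gas6, chr8:13494536-13494785, minus strand: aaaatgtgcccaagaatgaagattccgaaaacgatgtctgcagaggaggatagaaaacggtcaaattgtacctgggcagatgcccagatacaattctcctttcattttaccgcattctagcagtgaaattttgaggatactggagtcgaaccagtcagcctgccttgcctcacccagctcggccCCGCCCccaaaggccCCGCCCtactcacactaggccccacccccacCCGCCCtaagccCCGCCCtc
The motifs were searched on both strands, with overlapping matches counted: TTCNNNGAA (STAT factors), GAAANNGAA (interferon regulatory factors), GGGCGG (the GC box), TGANTCA (AP-1) and GAGGAAGT (PU.1). Windows of 8 of the 9 genes were searched, and *Megf10* was left out, so nothing is read about its start region. The GC box was held by 6 of the 8 windows, beside 32.7% of all 32851 windows of this length. It occurred 1 time in *Axl*, 3 times each in *Mertk* and *Tyro3*, 4 times each in *Gas6* and *Mfge8*, 5 times in *Pros1*, and 0 times in *Timd4* and *Stab2*. Of the 250 bases, 128 in the window of *Tyro3* and 83 in that of *Stab2* lay in annotated exons. These windows are therefore not wholly upstream sequence, unlike the others. *Pros1* had the only STAT motif among the 8 windows, starting at position -92 before the start, and 7.02% of all windows held this motif. The motif of interferon regulatory factors was matched only in *Timd4*, starting at position -77, and occurred in 7.13% of all windows. A form of it that is 1 base longer (another A at its end), which was searched first, matched 0 of the 8 windows. AP-1 and PU.1 motifs were not matched in any of the 8 windows, and they occurred in 6.75% and 2.44% of all windows. GC content was 60% in the window of *Axl*, 63.6% in *Mertk*, 64.4% in *Pros1* and 54.8% in *Gas6*, beside a median of 52.4% over all windows.

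Among the receptors, *Axl* (ENSMUSG00000002602.16), a receptor kinase that is induced in many reactive phagocytes, rose most. It lies on chromosome 7 of mm10 from 25757273 to 25788705 on the minus strand. Its level was 47.9, 51.7 and 49.5 CPM in sham mice 1 to 3 and 156, 175 and 217 CPM in BCAS mice 1 to 3. The sham mice lay close together and BCAS mouse 3 was the highest of all. The mean rose 3.68-fold, with 49.7 ± 1.93 CPM in the sham and 183 ± 31.5 CPM in the BCAS group (SD, n = 3 per group). By edgeR the log2 fold change was 1.88, with an SE of 0.12 and an adjusted *P* of 2.05e-05. *Mertk* (ENSMUSG00000014361.5), the TAM receptor of resting phagocytes, lies on chromosome 2 from 128698956 to 128802894 on the plus strand. It was at 33.8, 34.1 and 27.6 CPM in sham mice and at 71.2, 80.8 and 106 CPM in BCAS mice. Here too BCAS mouse 3 was the highest and the groups did not overlap. *Mertk* rose 2.70-fold, with 31.8 ± 3.67 CPM in the sham and 86.0 ± 18.0 CPM in the BCAS group (SD, n = 3 per group). By edgeR the log2 fold change was 1.43, with an SE of 0.15 and an adjusted *P* of 0.000202. In glmTreat, which asks whether a change exceeds 1 on the log2 scale, the adjusted *P* of *Mertk* was 0.0445.

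*Tyro3* (ENSMUSG00000027298.17, chromosome 2, 119797733 to 119818104, plus strand), the TAM receptor most abundant in neurons, did not follow the other receptors. Its level was 137, 134 and 149 CPM in sham mice and 96.9, 142 and 119 CPM in BCAS mice. BCAS mouse 2 lay within the range of the sham mice, so the groups overlapped. The log2 fold change was -0.23, with a 95% interval of -0.52 to 0.063 (edgeR adjusted *P* = 0.211). The value depended on single mice: it was -0.38 without BCAS mouse 2 (adjusted *P* = 0.0224) and -0.099 without BCAS mouse 1 (adjusted *P* = 0.535). In the 3 libraries with a choroid plexus level below 1000 CPM it was -0.0020, a value that rests on BCAS mouse 2 as the only BCAS mouse.

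Since ratios within a library do not depend on its scaling, the receptors were also compared with each other per length, as TPM (counts divided by exon length and scaled to a fixed sum). *Tyro3* made up 56.1%, 54.4% and 59.8% of the summed TPM of the TAM receptors in sham mice and 24.8%, 30.1% and 22.2% in BCAS mice. *Axl* took 24.1% to 25.9% in the sham group against 45.5% to 49.7% in the BCAS group, and *Mertk* took 15.8% to 19.8% and 24.4% to 28.1%. Thus *Tyro3* held the largest share in every sham mouse and *Axl* in every BCAS mouse. The share of *Tyro3* fell by 31.1 percentage points on average, with SDs of 2.79 and 4.02, while the summed TPM rose from 135 ± 2.13 to 264 ± 44.5 (SD, n = 3 each). The log2 ratio of *Axl* over *Mertk* was also higher in BCAS mice, by 0.44, with values of 0.29, 0.39 and 0.63 in sham mice and 0.91, 0.90 and 0.82 in BCAS mice. None of the 3 shares and 4 ratios computed overlapped between the groups. In each case the exact two-sided permutation test gave *P* = 0.1, also after adjustment, which is the smallest value that 3 against 3 mice allow.

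**Figure D2:**
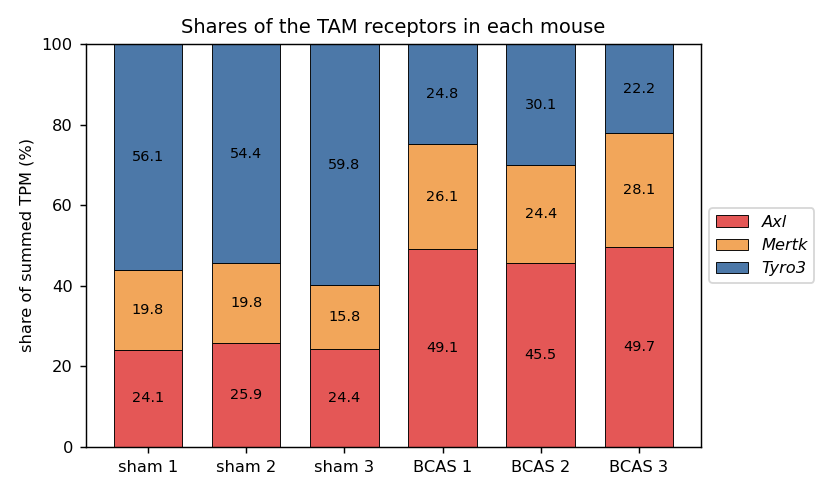
Share of each TAM receptor in their summed TPM (y axis, percent) in each of the 6 mice (x axis). Tyro3 is the largest segment in the 3 sham mice, at 54.4% or more, and Axl in the 3 BCAS mice, at 45.5% or more.

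Of the ligands, *Pros1* (ENSMUSG00000022912.8), which encodes protein S, had the larger change. It lies on chromosome 16 from 62854307 to 62929346 on the plus strand. Its level was 17.2, 15.2 and 16.2 CPM in sham mice and 56.7, 58.5 and 86.3 CPM in BCAS mice. The groups did not overlap, and BCAS mouse 3 was again the highest. *Pros1* rose 4.15-fold, with 16.2 ± 1.00 CPM in the sham and 67.2 ± 16.6 CPM in the BCAS group (SD, n = 3 per group). By edgeR the log2 fold change was 2.05, with an SE of 0.16 and an adjusted *P* of 4.95e-05. This was the largest log2 fold change of the 8 tested members, and its 95% interval of 1.68 to 2.42 overlapped that of *Axl*, 1.61 to 2.15.

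*Gas6* (ENSMUSG00000031451.6), which encodes the ligand shared by the TAM receptors, lies on chromosome 8 from 13465374 to 13494490 on the minus strand. Its level was 99.1, 136 and 102 CPM in sham mice and 220.1, 148 and 239.6 CPM in BCAS mice. BCAS mouse 2 lay just above sham mouse 2, and the other BCAS mice lay well above. The mean rose 1.80-fold, with 113 ± 20.6 CPM in the sham and 203 ± 48.1 CPM in the BCAS group (SD, n = 3 per group). By edgeR the log2 fold change was 0.85, with an SE of 0.18 and an adjusted *P* of 0.00885. It passed the fold change threshold without sham mouse 2 (1.01) and without BCAS mouse 2 (1.02). Its exons share 34 bases with Tmem255b on the other strand, 1.33% of its exon length. Within each group the highest *Gas6* values came from libraries with a high choroid plexus level: 4089 CPM of choroid plexus markers in sham mouse 2, and 5938 and 3225 CPM in BCAS mice 1 and 3, against 40.9 to 991 CPM in the others. The limit of 1000 CPM was set after seeing the data and lies just above sham mouse 1 (991 CPM). Sham mouse 3, at 71.1 CPM of these markers, had no less *Gas6* than sham mouse 1. BCAS mouse 1 had more of the markers than BCAS mouse 3 but less *Gas6*. With the choroid plexus level as a covariate, chosen after seeing the data, *Gas6* kept a log2 fold change of 0.79 (edgeR adjusted *P* = 0.000595). The slope on it was 0.080 per doubling (standard error 0.019, adjusted *P* = 0.104). In the 3 libraries below 1000 CPM, sham mice 1 and 3 and BCAS mouse 2, the log2 fold change of *Gas6* was 0.56 (edgeR adjusted *P* = 0.000179, with the single BCAS mouse assumed to vary like the sham mice).

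The balance of the ligands changed with this. Per length, *Gas6* exceeded *Pros1* in every mouse, with log2 ratios of 3.21, 3.85 and 3.34 in sham mice and 2.64, 2.02 and 2.15 in BCAS mice. The mean ratio fell by 1.19 on the log2 scale, with no overlap between the groups (exact permutation *P* = 0.1).

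**Figure D3:**
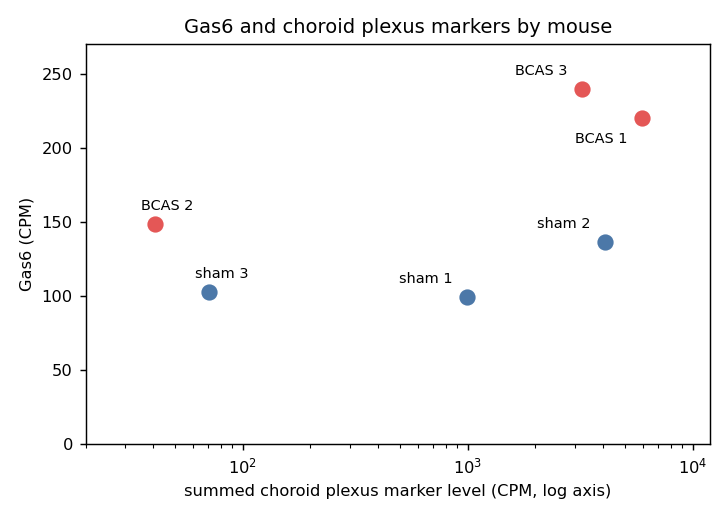
Gas6 level in CPM (y axis) against the summed level of 6 choroid plexus markers in CPM (x axis, log scale), 1 point per mouse, sham in blue and BCAS in red. Within each group, libraries above 1000 CPM of choroid plexus markers have the higher Gas6 level, and BCAS mouse 2 at 148 CPM lies above sham mice 1 and 3 at a comparably low or higher choroid plexus level.

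*Mfge8* (ENSMUSG00000030605.15, chromosome 7, 79133768 to 79149060, minus strand) encodes a bridge between phosphatidylserine and the integrins alpha-v beta-3 and alpha-v beta-5, made in the brain largely by astrocytes. Its level was 153, 164 and 175 CPM in sham mice and 142, 171 and 143 CPM in BCAS mice, and the groups overlapped. The log2 fold change was -0.11, with a 95% interval of -0.33 to 0.10 (edgeR adjusted *P* = 0.405). The direction was not stable: it was 0.063 when the libraries with a high choroid plexus level were left out, which leaves BCAS mouse 2 as the only BCAS mouse. The integrin subunits that receive this bridge did rise. *Itgb5* rose from 55.9 ± 0.935 to 284 ± 53.1 CPM (mean ± SD, n = 3 per group; log2 fold change 2.34, edgeR adjusted *P* = 1.36e-05). *Itgb3* rose by 2.31 and *Itgav* by 0.55 on the same scale (adjusted *P* = 5.74e-05 and 0.00909).

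*Megf10* (ENSMUSG00000024593.15, chromosome 18, 57133090 to 57297467, plus strand) encodes an engulfment receptor with which astrocytes take up synapses. Its level was 36.8, 34.4 and 29.5 CPM in sham mice and 45.5, 42.6 and 49.2 CPM in BCAS mice. The groups did not overlap, but the gap between sham mouse 1 and BCAS mouse 2 was small. *Megf10* rose 1.36-fold, or by 0.45 on the log2 scale (SE 0.10, edgeR adjusted *P* = 0.0117). In the 3 libraries with a low choroid plexus level, where BCAS mouse 2 is the only BCAS mouse and is assumed to vary like the sham mice, it was 0.37 with an adjusted *P* of 0.0786. Of its relatives, *Megf11* had -0.34 (adjusted *P* = 0.0917), and *Pear1* rose by 1.01.

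The remaining receptors were barely expressed. *Stab2* (ENSMUSG00000035459.18, chromosome 10, 86841198 to 87008025, minus strand), a phosphatidylserine receptor of sinusoidal endothelium, had counts of 54, 62 and 54 in the sham and of 54, 27 and 29 in the BCAS group. BCAS mouse 1 lay within the sham range. The log2 fold change was -0.52, with a wide 95% interval of -1.25 to 0.21 (edgeR adjusted *P* = 0.252). Without BCAS mouse 1 it was -0.88 (adjusted *P* = 0.0794), and in the 3 libraries of low choroid plexus level, with BCAS mouse 2 as the only BCAS mouse, -0.82. Its relative *Stab1*, a scavenger receptor of macrophages, rose from 17.2 ± 2.59 to 64.0 ± 22.4 CPM (SD, n = 3 each). *Timd4* (ENSMUSG00000055546.6, chromosome 11, 46810800 to 46844332, plus strand), a phosphatidylserine receptor of long-lived tissue macrophages, had counts of 8, 0 and 2 in the sham and of 10, 0 and 13 in the BCAS group. With 3 of the 6 libraries at or under the limit of detection, a difference in *Timd4* was not detectable at this depth.

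**Figure D4:**
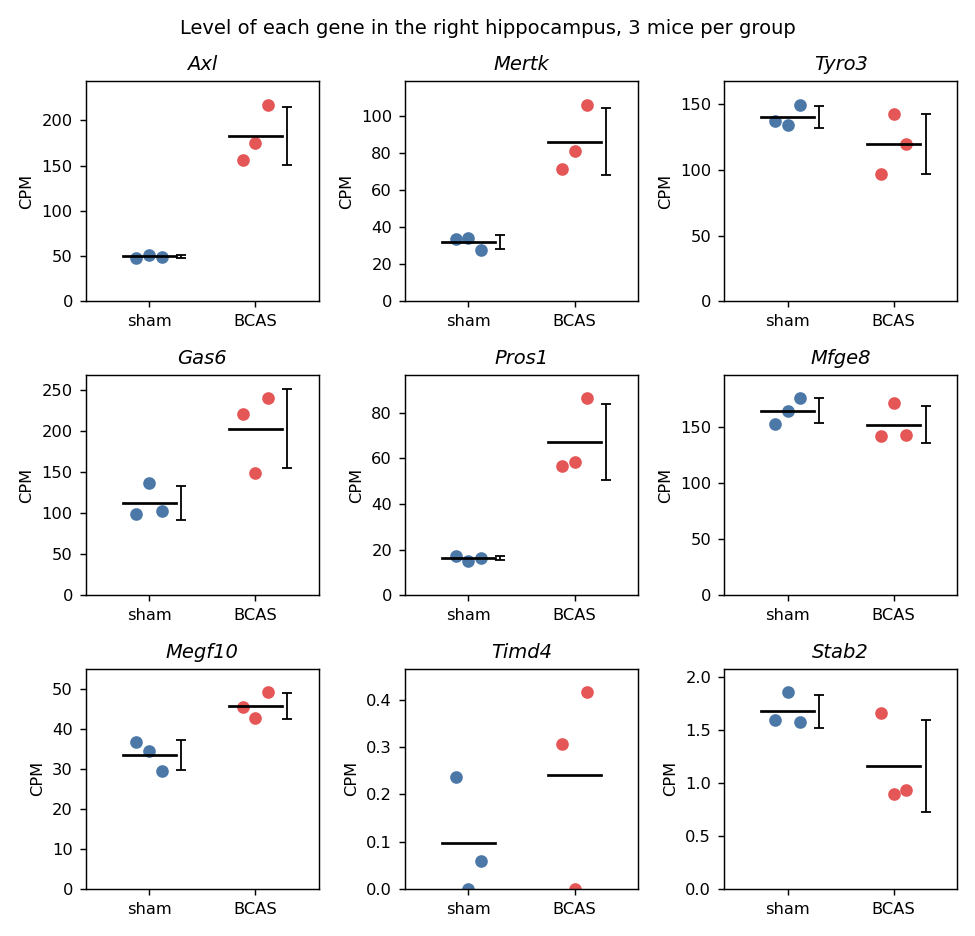
Level of each of the 9 genes in CPM (y axis, from 0) in sham and BCAS mice, with 1 point per mouse, a line at the group mean and a bar of 1 SD beside it (not drawn for Timd4, which was not tested). Axl, Mertk, Pros1, Gas6 and Megf10 show no overlap between the groups, with Axl at 47.9 to 51.7 CPM in sham mice and 156 to 217 CPM in BCAS mice.

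Ordered per length, *Gas6* was the most abundant member in sham mice at 149 ± 26.9 TPM (SD, n = 3), followed by *Mfge8* at 118 ± 4.87, *Tyro3* at 76.4 ± 3.31, *Axl* at 33.4 ± 1.15, *Mertk* at 24.9 ± 3.39, *Megf10* at 14.7 ± 2.02 and *Pros1* at 13.4 ± 1.09 TPM. *Stab2* and *Timd4* came last at 0.647 and 0.155 TPM. Of these neighbours, only *Megf10* and *Pros1* overlapped in range. In BCAS mice *Gas6* remained first at 279 ± 71.7 TPM, and *Axl* moved to second place at 127 ± 23.9 TPM, overlapping in range with *Mfge8* at 113 ± 9.66 TPM. *Mertk* (69.5 ± 15.6 TPM), *Tyro3* (67.4 ± 11.8 TPM) and *Pros1* (57.6 ± 15.4 TPM) followed with overlapping ranges, then *Megf10* at 20.8 ± 1.95 TPM. *Tyro3*, which stood at more than the level of *Axl* and *Mertk* together in every sham mouse, was thus level with *Mertk* in BCAS mice.

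Around these genes, 74 further genes of efferocytosis and TAM signalling were listed by role, of which 71 were tested. Of these, 29 were up-regulated DEGs and 0 were down-regulated DEGs with edgeR, DESeq2 gave 28 up and 0 down and limma-voom 29 and 0, while 46 were higher and 13 lower at an unadjusted *P* under 0.05. Over all tested genes 22.9% were higher and 19.4% lower at that *P*, so the count of lower pathway genes was near the background. Up-regulated DEGs made up 8.47% of all tested genes and down-regulated DEGs 0.999%, and with so low a share nothing is read from the 0 down-regulated DEGs among 71. By the adjusted *P* value alone 45 rose and 7 fell, where 13.2% of all tested genes fell. The median log2 fold change was 0.66. These lists share many genes with microglia, as the marker values below show.

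Within the lists by role, genes are counted as risen or fallen by the adjusted *P* value, beside 18.0% and 13.2% of all tested genes. The 1 or 2 genes that fell in a list are too few to be set apart from that background. The find-me signals recruit phagocytes to dying cells. Of 8 tested genes, 5 rose and 1 fell. *Cx3cr1* and *P2ry6*, microglial receptors for fractalkine and for UDP, rose by 2.73 and 2.28 on the log2 scale, as did *Anxa1* by 1.38 and *Gpr132*, at low counts, by 3.44. *Cx3cl1*, the neuronal gene of fractalkine, fell from 583 ± 7.30 to 379 ± 72.7 CPM (mean ± SD, n = 3 per group; log2 fold change -0.62, edgeR adjusted *P* = 0.0085). Of 6 tested genes that set the exposure of phosphatidylserine, 3 rose and 1 fell, and none of them was a DEG with edgeR (3 were higher and 1 lower at an unadjusted *P* under 0.05). The scramblase gene *Ano6* had the highest log2 fold change (0.61, edgeR adjusted *P* = 0.00515), and *Tmem30a*, a subunit of the flippases that keep the lipid inside, had the lowest (-0.40, adjusted *P* = 0.0185).

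Other recognition receptors and bridges held 12 DEGs among 19 tested genes, with 14 higher and 0 lower by the adjusted *P* value (15 and 3 at an unadjusted *P* under 0.05). Their extremes were *Cd300lf* at 5.71 (adjusted *P* = 6.32e-05) and *Megf11*. The size of the rise of *Cd300lf* rests on sham counts of 3, 4 and 6, at or just above the limit of detection. Among the 4 do-not-eat-me genes, *Cd22* rose by 5.46, from low sham counts of 9, 5 and 9. *Sirpa*, the phagocyte receptor of CD47, rose by 0.71, whereas *Cd47* itself fell by 0.34 (edgeR adjusted *P* = 0.0119). Of 11 engulfment genes, 6 rose and 2 fell. The guanine exchange factor gene *Vav1* rose by 3.11 and the lipid exporter gene *Abca1* by 2.35, and *Ptk2*, a focal adhesion kinase, fell by 0.22. Of 11 genes of the phagosome and of lipid handling, 7 rose and 1 fell. The DEGs among them were *Cybb* (3.97), *Dnase2a* (2.43), *Ucp2* (2.25) and *Lipa* (1.19), and the one that fell was *Rab5a* (-0.26, edgeR adjusted *P* = 0.0462).

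Genes acting directly on TAM receptors and ligands moved unevenly. *Ggcx*, *Vkorc1* and *Vkorc1l1*, which serve the vitamin K dependent carboxylation of GAS6 and protein S, had log2 fold changes of 0.073, 0.21 and -0.27, and adjusted *P* values of 0.675, 0.631 and 0.0526. Of the sheddases that cut MERTK and AXL from the cell, *Adam17* rose from 17.2 ± 1.21 to 45.9 ± 10.9 CPM (mean ± SD, n = 3 per group; log2 fold change 1.41, edgeR adjusted *P* = 0.000322), and *Adam10* rose by 0.37 (adjusted *P* = 0.00767). *Lgals3*, the gene of galectin-3, another MERTK ligand, rose by 4.05, and *Tub*, described as a further ligand, fell by 0.41 (adjusted *P* = 9.36e-05 and 0.0105). On the interferon side, *Socs3* rose by 2.83, *Ifnar2* by 1.21, *Socs1* by 1.04 and *Ifnar1* by 0.41, each of them past the threshold of the adjusted *P* value.

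**Figure D5:**
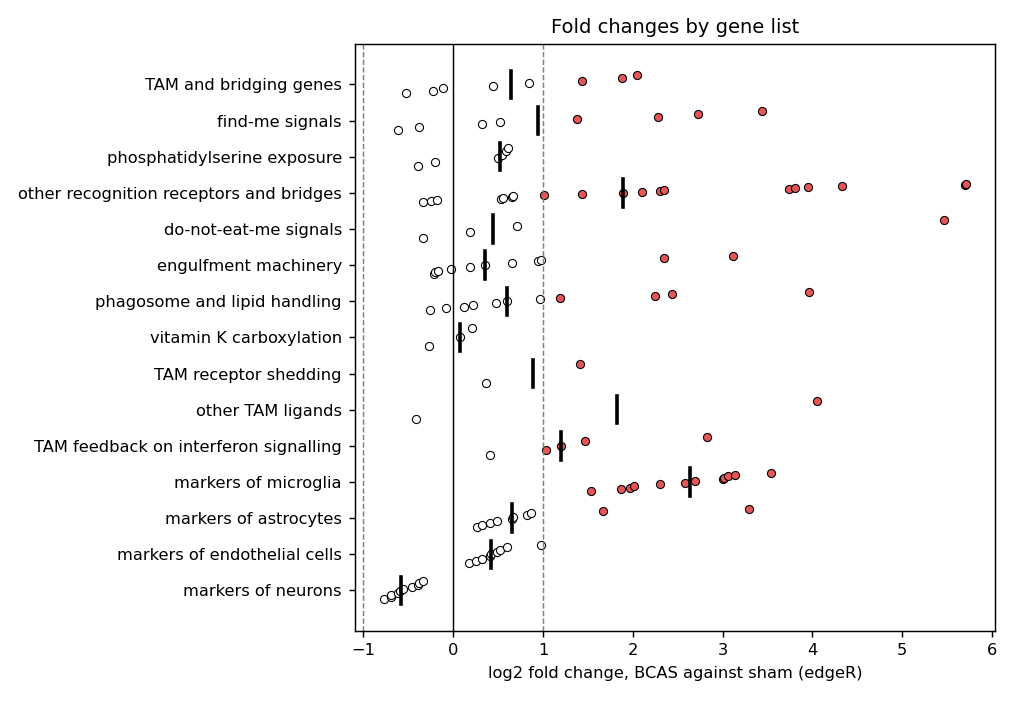
Log2 fold change, BCAS against sham (x axis), of every tested gene of the TAM and bridging genes, of the pathway lists by role, and of 4 lists of cell type markers (y axis). Red points are up-regulated DEGs, white points are no DEGs, black bars are list medians and dashed lines mark -1 and 1; the microglial markers have a median of 2.64 and the neuronal markers one of -0.58.

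Markers of several cell types moved in the same comparison, counted by the adjusted *P* value beside 18.0% higher and 13.2% lower among all tested genes. All 12 microglial markers were up-regulated DEGs, with log2 fold changes of 1.54 to 3.54 and a summed level of 337 to 359.5 CPM in sham mice and 1745 to 2903 CPM in BCAS mice, highest in BCAS mouse 3. Of the astrocyte markers 9 of 10 rose, with a median of 0.66, and their sum was 4659 to 4968 CPM in sham mice and 9725 to 10280.2 CPM in BCAS mice. Much of this came from Gfap, at means of 375 and 3674 CPM, and the other 9 markers summed to 4314 to 4541 and 6280.2 to 6359.8 CPM. Of the endothelial markers 5 of 9 rose, with a median of 0.42, and 8 of 10 neuronal markers fell, with a median of -0.58 and sums of 7835 to 8508 and 4403 to 6374 CPM. Of 6 pericyte markers 4 rose, with a median of 0.69. Border-associated macrophage markers rose in 6 of 8, from summed levels of 10.6 to 15.0 CPM to 29.9 to 38.1 CPM. Of the monocyte and neutrophil markers 3 of 5 tested rose, with sums of at most 2.07 CPM in sham mice and 6.12 to 13.4 CPM in BCAS mice, and Ly6g was at 0 in every library. Of 8 oligodendrocyte markers, 0 passed in either direction, with a median of 0.13. Likewise 0 of 5 red blood cell markers and 0 of 6 choroid plexus markers passed. The part of these cell types in the changes of the TAM and bridging genes was not tested.

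Set beside the microglial markers, *Axl* and *Pros1* lay within their range of log2 fold changes and *Mertk* (1.43) below the lowest of them, P2ry12 (1.54). Per 100 counts of the 12 microglial markers, *Axl* had 14.3 ± 1.01 counts in sham mice and 8.57 ± 0.962 in BCAS mice (SD, n = 3 each). *Mertk* had 9.13 ± 1.14 and 4.01 ± 0.329, and *Pros1* had 4.64 ± 0.140 and 3.11 ± 0.138. Relative to these markers, then, each of the 3 DEGs was lower in every BCAS mouse than in every sham mouse. The same held for *Gas6*, *Tyro3*, *Mfge8* and *Megf10*. The summed level of the markers itself rose 6.23-fold, so a gene that rose less than this is lower on such a scale. How many of all tested genes behave in this way was not computed, and nothing particular to the members is read from it. For each of the 7 genes set against the markers in this way the exact two-sided permutation *P* was 0.1.

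Genes whose levels over the 6 libraries most resembled those of a TAM receptor were sought by the root mean square difference between log2 CPM profiles, each centred on its own mean, among genes with a mean of at least 1 CPM. For *Axl* these were *Ctsa* (0.061), *Rgs10* (0.071) and *Anxa4* (0.071). For *Mertk* they were *Adam17* (0.052), *Pygl* (0.056) and *Zfp217* (0.068). *Tyro3* had *Sept7* (0.051), *Hecw2* (0.051) and *Thrb* (0.056) nearest, and 114 genes within 0.1, against 10 for *Axl* and 11 for *Mertk*. Among the members themselves, *Axl* was nearest to *Pros1* (0.14), with *Mertk* at 0.25 from *Axl*, and *Tyro3* was nearest to *Mfge8* (0.12). With 2 groups of 3, such a profile largely reflects the difference between the groups. The named genes had log2 fold changes of 1.77 to 1.81 for *Axl* (itself 1.88) and 1.41 to 1.53 for *Mertk* (1.43). Those of *Tyro3* (-0.23) had -0.23 to -0.19. Likeness beyond a similar fold change was not tested.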

How the data were processed

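Raw counts per gene were deposited for each of the 6 libraries, without normalization. The authors trimmed the reads with Trim Galore, aligned them to mm10 with HISAT2 and counted them over exons with featureCounts. The file headers name version 2.0.3 and GENCODE M20, the methods version 1.6.3. According to the headers, mates were counted as separate reads and strand was ignored, so reads on exons shared by genes of opposite strands were not assigned. BCAS columns carry the numbers 2 to 4 in the headers, and samples were taken from the labels. Symbols came from GENCODE M21 and matched 54723 of 54752 identifiers.

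Counts were filtered with filterByExpr, normalized by TMM and tested with edgeR 4.0.16 (quasi-likelihood) in R 4.3.3, with limma 3.58.1 and DESeq2 1.42.0 as alternatives and Benjamini-Hochberg adjustment over all tested genes. The prior count of log2 CPM was 2. TPM used the deposited exon lengths, and ratios a pseudocount of 0.5 reads. The labels do not state whether replicates were bred or housed apart, and P values measure the spread between these mice. The calls of edgeR, limma-voom and DESeq2 were tested on simulated counts, with changes larger than those of *Gas6* and *Megf10*. The other steps were not tested on simulated counts. The text names all members, the highest and lowest gene of each pathway list with at least 1 CPM, the DEGs of lists of up to 11 genes, the 3 genes most like each receptor, and markers. Other genes of the pathway lists are named as relatives or partners of members and were chosen after their values were seen. Members and lists were chosen with earlier results of these data known. Alternatives were DESeq2, limma-voom, RLE factors, library totals, other filters, adjusted P alone, glmTreat, halved counts, the replicate block and leaving out each mouse. Fits that account for choroid plexus were added after seeing the data. A gene of the pathway lists is counted in their totals and not reported here by name.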

Additional observations from a re-analysis of the deposited data

How the results depend on the processing

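*Axl*, *Mertk* and *Pros1* were DEGs under all 18 alternatives, with log2 fold changes of 1.73 to 1.98, 1.25 to 1.55 and 1.81 to 2.16. By the adjusted P value alone, *Gas6* (0.85) and *Megf10* (0.45) also counted, the members up became 5, and the pathway genes 45 up and 7 down. With each mouse left out, *Gas6* ran from 0.70 to 1.02 and the members up from 3 to 4. Only *Mfge8* changed sign, to 0.063 without the libraries of high choroid plexus level; the cause was not tested. Scaling by library totals moved the median log2 fold change over all tested genes from 0.018 to 0.095. Mice of the same replicate number did not deviate together, so no pairing was used (correlations of residuals of 0.036, -0.31 and -0.16), and 1 of the 6 libraries correlated best with its own number. With the replicate block there were 1437 up-regulated and 158 down-regulated DEGs in place of 1576 and 186, and the members up stayed at 3. *Timd4* is limited by depth, since a library at 0 allows up to 3 counts.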
